A study of Mus musculus with 2 samples.

Results

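The clustered protocadherin genes of mouse chromosome 18 were examined as 1 stretch of 925 kb, from 37.08 to 38.005 Mb in mm9 coordinates, in which the Pcdha, Pcdhb and Pcdhg genes follow each other in this order. The stretch was set by its coordinates and holds 3700 bins of 250 bp, of 10130160 bins tested over 21 chromosomes. It was divided into an alpha part from 37.08 to 37.35 Mb, a beta part from 37.42 to 37.67 Mb and a gamma part from 37.82 to 38.005 Mb, with the gaps of 70 kb and 150 kb between them, and was set beside the 500 kb on either side. The samples were V6.5 mouse embryonic stem cells (ESCs), a line from a C57BL/6 by 129/sv cross that the records list as strain C57BL/6, grown on feeder cells with leukemia-inhibiting factor and then moved to gelatin without feeders. 1 library was made by chromatin immunoprecipitation (ChIP) with a KDM2A-specific antibody and 1 from input DNA, which no antibody was used for. Chromatin for the KDM2A ChIP was fixed with the protein crosslinker EGS and then with formaldehyde, and the records name no treatment and no further allele. With 1 library per group, every test below compares these libraries and not the conditions, and tests and intervals cover counting error only. PCR copies are not independent molecules, so the intervals may be too narrow and the p-values too small even for counting error.

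Clustered protocadherins are cell surface adhesion proteins, best known from neurons, where each cell expresses a small choice of them and thereby gains a surface identity of its own. In the alpha and gamma groups, each variable first exon has its own promoter and is spliced to constant exons shared by the whole group, whereas each beta gene is a single coding exon. Many of these promoters are rich in CpG, and their choice is linked to DNA methylation and to the insulator protein CTCF. KDM2A is a demethylase of histone H3 lysine 36 whose zinc finger CxxC domain binds nonmethylated CpG. The RefSeq annotation of GRCm38.p6, used for names and order because it is of another build than the files, lists 14 alpha genes from Pcdha1 to Pcdhac2, then 22 beta genes from Pcdhb1 to Pcdhb22, then 22 gamma genes from Pcdhga1 to Pcdhgc5, of which 1, Pcdhgb8, is a pseudogene. Zmat2 is the nearest protein-coding gene before them and Diaph1 the nearest after them, and the carrier gene Slc25a2 and the TFIID subunit gene Taf7 lie among them. No cluster of tags was tied to a single gene, and none of the sequence was used.

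KDM2A tags were enriched over the array, with many of them in a row of clusters. The array held 5548 KDM2A tags and 3166 input tags. With input scaled to the depth of the ChIP library (a factor of 1.03), this gave a ratio of 1.703 (exact 95% interval 1.63 to 1.78), where the genome as a whole is 1 by construction. In the test of each bin against its local input, 192 of the 3700 bins (5.19%) were called, against 1.05% of all bins of the genome. Called bins within 500 bp of each other made 77 clusters, 8.32 per 100 kb, compared with 1.73 per 100 kb genome-wide. The clusters covered 5.81% of the array and held 43.5% of its KDM2A tags and 8.40% of its input tags. Outside clusters the ratio in the array was 1.05 (0.998 to 1.10), beside 0.854 over the genome outside clusters. With KDM2A and input exchanged in the same test, 3 bins of the array (0.0811%) were called, against 0.145% of all bins. Input was there set against local KDM2A tags, which are raised in the array, so this share does not measure the noise of the KDM2A calls. Of 2668 windows of 925 kb laid end to end over the genome, 81 (3.04%) held at least as many clusters, and the median window held 8.

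**Figure D1:**
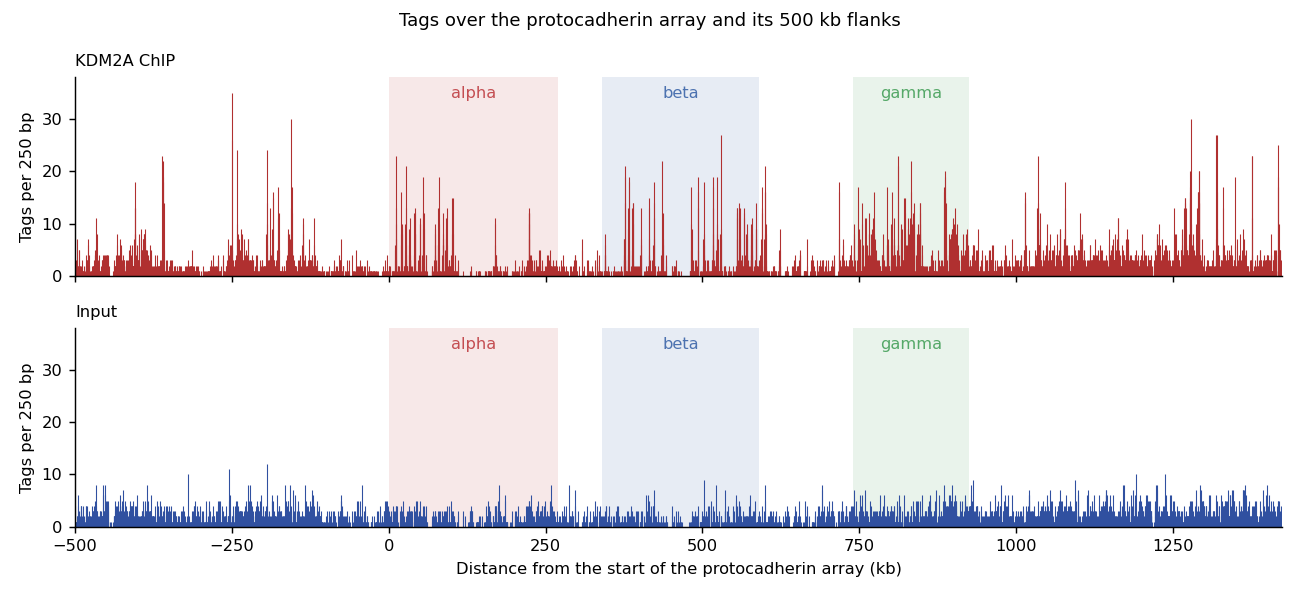
Tags per 250 bp bin in the KDM2A ChIP library (above) and the input library (below) against the distance in kb from the start of the protocadherin array, with the alpha, beta and gamma parts shaded. KDM2A tags stand in spikes of up to 27 tags in the array, whereas no input bin of the array held more than 9 tags.

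Each of the 3 gene groups held clusters, and over the parts as set their density was lowest in alpha and highest in gamma. In the alpha part, 50 of 1080 bins (4.63%) were called in 17 clusters, 6.30 per 100 kb. These were unevenly spread, with 15 of them in 91.25 kb at 16.4 per 100 kb. The other 2 lay in the remaining 178.75 kb, at 1.12 per 100 kb, so that the density of alpha depends on where the part was set to end. In the beta part, 64 of 1000 bins (6.40%) were called in 23 clusters, 9.20 per 100 kb. In the gamma part, 62 of 740 bins (8.38%) were called in 29 clusters, 15.7 per 100 kb. These were uneven too, with the first 25 of them ending by 37928000. Neither beta nor gamma was cut down to a dense stretch, so the density of that stretch of alpha has no like value in them. The gap between alpha and beta held 1 called bin of 280 (0.357%), under the share of the genome, and the gap between beta and gamma held 15 of 600 (2.50%). The flanks together held 122 called bins of 4000 (3.05%) in 51 clusters, 5.10 per 100 kb, so that the clusters were not confined to the protocadherin genes. Of windows of the same length as each part, laid end to end over the genome, 6.66% held at least as many clusters as the alpha part, 3.34% at least as many as the beta part and 0.572% at least as many as the gamma part. By the number of called bins, the parts were less far apart, at 4.70% for alpha, 2.72% for beta and 1.57% for gamma.

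The ratio of KDM2A to input over all tags was lower in the alpha part as a whole than in the beta and gamma parts, and it was uneven within alpha. The alpha part held 1242 KDM2A tags and 854 input tags, a ratio of 1.41 (1.295 to 1.54). In the 91.25 kb with 15 of its 17 clusters, a stretch set with the clusters in view and not tested, the ratio was 2.73 (2.39 to 3.13). In the rest of the part, with 414 KDM2A and 559 input tags, it was 0.720 (0.632 to 0.819). Beta and gamma were not cut down in this way, so the ratio of the 91.25 kb has no like value in them. The beta part held 1457 and 695, a ratio of 2.04 (1.86 to 2.23). The gamma part held 2120 and 994, a ratio of 2.07 (1.92 to 2.24). By two-sided Fisher's exact test, adjusted over the 6 comparisons made, the odds of a KDM2A tag in alpha were 0.694 times those in beta (0.611 to 0.788, adjusted p = 1.70e-08) and 0.682 times those in gamma (0.607 to 0.766, adjusted p = 1.59e-10). Between beta and gamma the odds ratio was 0.983, with an interval of 0.872 to 1.11 (adjusted p = 0.787, exact test). No difference was detected, and odds ratios within these bounds remain compatible with the counts. Against the flanks together, with 7235 KDM2A and 5313 input tags and a ratio of 1.32 (1.28 to 1.37), the odds were 1.54 times higher in beta (1.396 to 1.699, adjusted p = 2.69e-18) and 1.57 times in gamma (1.44 to 1.704, adjusted p = 5.07e-26), by the same exact test. Alpha, at 1.07 times (0.971 to 1.17, adjusted p = 0.208, exact test), did not differ from the flanks together beyond counting error. The flanks themselves were unequal, with a ratio of 1.18 (1.11 to 1.24) upstream and 1.43 (1.37 to 1.503) downstream. The value of alpha lay above the interval of the upstream flank and within that of the downstream flank, and neither flank was tested alone. The tests above treat each tag as a separate draw, although many tags lie in clusters. Their p-values do not cover the spread between stretches of a part or of the flanks.

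Tags between clusters were also counted by part. Outside clusters, the ratio was 0.794 in alpha (0.714 to 0.883), 1.01 in beta (0.907 to 1.13) and 1.417 in gamma (1.30 to 1.54), compared with 0.854 over all bins of the genome outside clusters and 1.04 in the flanks (1.004 to 1.08). These ratios leave out bins that were called for their KDM2A tags, so they are given as a description and were not tested. Tags outside clusters include those of high bins that missed the call, which were most frequent in gamma. Outside the clusters called against the genome mean alone, a choice made with the data in view that takes in all such bins, the ratio in gamma was 1.23 (1.12 to 1.35). There it was 0.787 in alpha, 0.980 in beta and 0.976 in the flanks. Outside the clusters of the stricter limit of 0.0001, the ratio was 1.001 in alpha, 1.22 in beta and 1.65 in gamma, beside 1.10 in the flanks.

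The input library was itself uneven. It held 3.16 tags per kb in alpha (2.95 to 3.38), 2.78 in beta (2.58 to 2.995) and 5.37 in gamma (5.04 to 5.72), beside 3.85 genome-wide. Bins with no tag in either library made up 40.8% of alpha, 39.8% of beta and 13.8% of gamma, compared with 35.0% of all bins. The called shares and cluster densities above are over all bins of a part, these empty bins included. How far reads could be placed in these related genes was not measured. The part of this unevenness in the ratios, the called shares and the cluster densities was not tested.

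**Figure D2:**
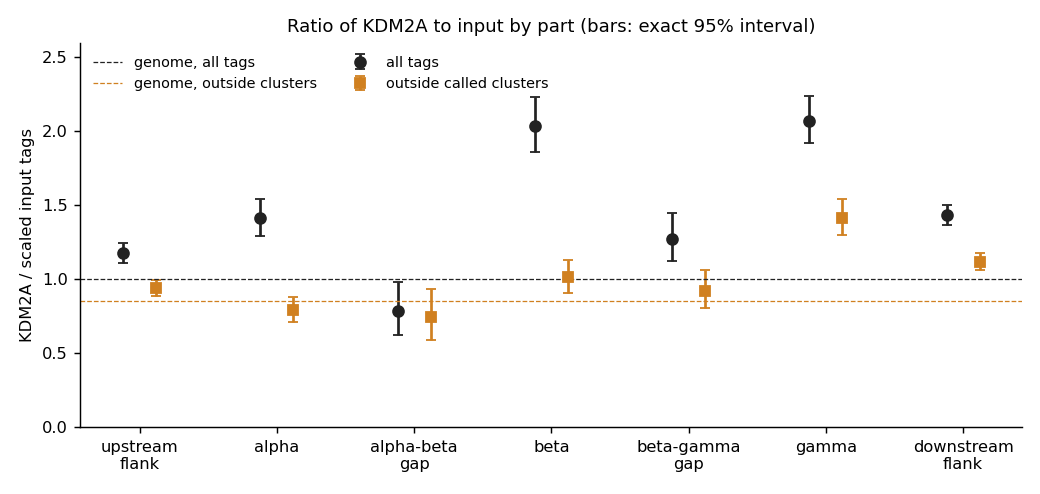
Ratio of KDM2A tags to scaled input tags in each part of the array, the gaps and the flanks, for all tags (circles) and for tags outside called clusters (squares), with exact 95% intervals from counting error. Over all tags beta and gamma lie near 2.04 and 2.07 and alpha at 1.41, and outside clusters gamma alone among the 3 parts lies above the flanks, at 1.417.

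In the alpha part, the clusters fell into a dense group and 2 that stood alone. Summits in the part were a median of 6.25 kb apart. 15 of the 17 clusters lay between 37091001 and 37182250, a stretch of 91.25 kb with 828 KDM2A tags and 295 input tags. After it came the longest stretch of the part with no called bin, 67.25 kb from 37182251 to 37249500, where 57 KDM2A tags and 114 input tags gave a ratio of 0.486 (0.347 to 0.674) and no bin held more than 4 KDM2A tags. The first lone cluster, from 37249501 to 37250000, held 21 KDM2A tags and 5 input tags, with an adjusted p of 0.000201 for its highest bin (exact Poisson test). The last, from 37303001 to 37304250, held 59 and 11. The cluster with the most tags of the part, from 37134751 to 37136000, held 61 KDM2A tags and 5 input tags, a ratio of 11.9 (4.81 to 37.8). Its 5 bins held 12, 9, 19, 12 and 9 KDM2A tags in order, against 4, 0, 0, 1 and 0 input tags, so that it rose in the middle while input did not. The widest cluster, 1750 bp from 37099501 to 37101250, held 59 and 10, with a ratio of 5.73 (2.91 to 12.6). The first cluster of the part, from 37091001 to 37092250, was its tallest, with 23 tags in its highest bin and 56 and 11 tags in all. The lowest, a single bin from 37112751 to 37113000, held 9 KDM2A tags and 1 input tag (adjusted p = 0.00122, exact Poisson test).

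In the beta part, where each gene is a single exon, clusters were more even in width than in alpha or gamma. Their widths lay between 250 and 1000 bp, while their highest bins held between 7 and 27 KDM2A tags, a range wider than that of alpha, between 9 and 23, and 3 of the 23 were single bins, and summits were a median of 7.50 kb apart. The cluster with the most KDM2A tags, from 37596751 to 37597750, held 57 against 2 input tags, a ratio of 27.7 (7.32 to 234). The cluster from 37456001 to 37456750 held 54 KDM2A tags, as 19, 14 and 21 in its 3 bins, and 0 input tags, which is 17.5-fold with input set to a floor of 3 tags over the cluster, and the exact 95% interval of the ratio begins at 13.7. The cluster from 37468501 to 37469500 held 51 and 5. The cluster from 37608751 to 37609750 also held 51, with 6 input tags, and had the highest bin of the whole array, 27 KDM2A tags beside 2 input tags (adjusted p = 5.44e-26, exact Poisson test). Of all clusters of the genome, 11.1% were at least as high. The lowest cluster by its highest bin, from 37454501 to 37455000, held 14 KDM2A tags and 0 input tags, with 7 in each bin. The longest stretch with no called bin, 45.25 kb from 37517001 to 37562250, held 54 and 47 tags, a ratio of 1.12 (0.741 to 1.69).

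Clusters continued past the end of the beta part. 4 of the 7 clusters of the gap between beta and gamma lay in its first 12 kb, as a continuation of the row in the beta part. They were a single bin from 37673251 to 37673500 with 7 KDM2A tags and 0 input tags, a cluster from 37675001 to 37675750 with 42 and 2, a cluster from 37679251 to 37680250 with 61 and 9, and a cluster from 37681251 to 37681750 with 18 and 2. With the beta part extended over these 12 kb, an end set with the clusters in view, it held 27 clusters and the odds ratio of beta over gamma became 1.02 (0.912 to 1.15, adjusted p = 0.703, Fisher's exact test). The other clusters of this gap were single bins from 37703501 to 37703750 with 9 and 1 tags and from 37747251 to 37747500 with 7 and 4, and a cluster from 37798001 to 37798750 with 41 and 6. The gap between alpha and beta held a single bin, from 37388251 to 37388500, with 7 KDM2A tags and 0 input tags, and it was lost when each position and strand was counted once.

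In the gamma part, clusters were closest together, with summits a median of 3.88 kb apart. 11 of the 29 were single bins and their median width was 500 bp, with a median of 24 KDM2A tags. 3 clusters held more KDM2A tags than any of the alpha or beta part. The first was the cluster from 37965751 to 37968250, the widest of the array at 2500 bp and the one with the most KDM2A tags, 134 against 15 input tags, a ratio of 8.68 (5.08 to 15.9). Its 10 bins held 17, 16, 20, 19, 15, 7, 10, 8, 8 and 14 KDM2A tags in order, so that the first 5 bins were high, the next 4 were lower and the last rose again. The bins with 7, 8 and 8 tags were not called themselves. The cluster followed the longest stretch of the part with no called bin, 37.75 kb from 37928001 to 37965750, with 138 KDM2A tags, 189 input tags and a ratio of 0.710 (0.566 to 0.889). The other 2 were the cluster from 37912751 to 37914250, 1500 bp wide with 70 and 9 tags, and the cluster from 37926251 to 37928000, 1750 bp wide with 68 and 14. The cluster from 37892251 to 37892750 held 44 and 2 with the tallest bin of the part, at 23 tags. The lowest clusters were single bins of 8 KDM2A tags each, from 37849501 to 37849750 with 4 input tags and from 37995251 to 37995500 with 2. Not all high bins of the gamma part were called. 37 of its 99 bins with 7 or more KDM2A tags, the lowest number that was called anywhere, missed the limit, compared with 2 of 52 in alpha and 7 of 71 in beta. In each of these bins the local input was above the genome mean, with a median expected level of 2.16 tags in the gamma part.

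**Figure D3:**
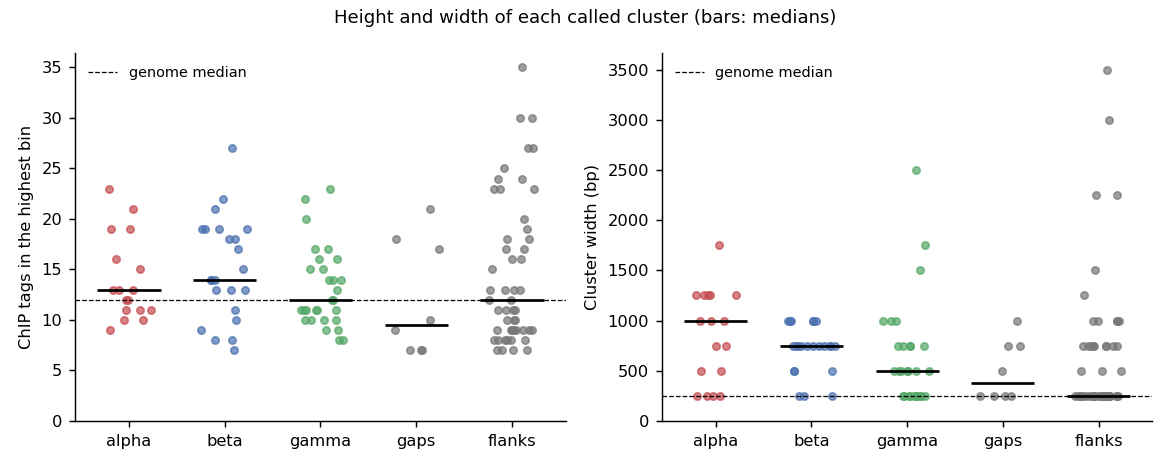
KDM2A tags in the highest bin (left) and width in bp (right) of every called cluster, by part, with solid bars at the medians of the groups and a dashed line at the median of all clusters of the genome. Heights overlap between all parts around medians of 12 to 14 tags in alpha, beta and gamma, whereas widths have medians of 1000 bp in alpha, 750 bp in beta and 500 bp in gamma beside 250 bp in the flanks and the genome.

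The clusters of the 3 gene groups were of ordinary height and were wider than most. Of the 69 clusters in alpha, beta and gamma, 26 (37.7%) reached 15 tags in their highest bin, beside 36.5% of all 43759 clusters of the genome, and the median height was 13 tags beside 12. Single bins made up 26.1% of them, beside 51.0% in the genome and 54.9% in the flanks, and their median was 31 KDM2A tags beside 17 in the genome and 13 in the flanks. The cluster with the most tags of either flank held more than any in the array. Upstream, the cluster from 36719001 to 36721250 held 137 KDM2A tags and 8 input tags and that from 36924751 to 36925750 held 62 and 3. Downstream, the cluster from 38369251 to 38372750 held 184 and 17 and that from 38357001 to 38359250 held 133 and 21. Within clusters, the ratio was 8.04 in alpha (6.30 to 10.4), 10.8 in beta (8.46 to 13.9) and 8.21 in gamma (6.64 to 10.3), with overlapping intervals, beside 9.77 in the flanks (8.34 to 11.5). These ratios describe bins that were called for them and were not tested.

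Around the highest bin, KDM2A tags fell within 1 kb, and input changed by less. In alpha the mean was 14.0 KDM2A tags in the highest bin, 6.21 in the bins next to it and 2.21 at 1 kb, and in beta it was 15.1, 7.76 and 1.85. Between 2 and 5 kb away, alpha reached 0.910 and beta 1.097 tags per bin, where input was 0.844 and 0.746. In gamma the mean fell from 13.1 to 6.16 in the next bins and 2.88 at 1 kb, and stayed at 2.97 between 2 and 5 kb, where input was 1.20. Between 2 and 5 kb the mean was 2.51 KDM2A tags in the flanks and 2.57 in the genome, where input was 1.43 and 1.47. In KDM2A tags alone, gamma was thus nearer to these than alpha and beta, which were lower. Gamma had more KDM2A tags and less input than the flanks and the genome here, so that relative to input it stood above both. Neighbouring clusters fall within this range in gamma, since its summits were a median of 3.88 kb apart, and their part in its level was not tested. Input in the highest bin was 1.18 tags in alpha, 1.35 in beta and 1.38 in gamma, and at 1 kb it was 1.12, 0.870 and 1.41. Over all clusters of the genome input fell from 1.83 tags in the highest bin to 1.49 in the next bins and 1.38 at 1 kb.

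**Figure D4:**
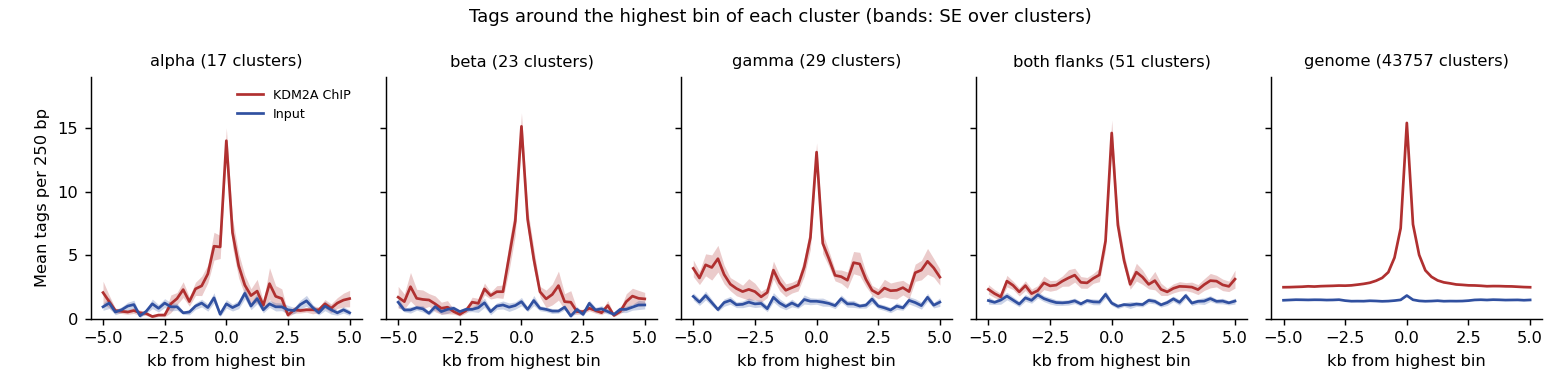
Mean tags per 250 bp bin against the distance in kb from the highest bin of each cluster, for KDM2A ChIP (red) and input (blue), in alpha, beta, gamma, the flanks and the genome, with bands of 1 SE over clusters. The summit is chosen for its KDM2A tags, and input stays between 1.18 and 1.83 tags there in all 5 panels. Between 2 and 5 kb, KDM2A falls to 0.910 tags in alpha, 1.097 in beta and 2.97 in gamma, beside 2.51 in the flanks and 2.57 in the genome.

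Nearly all clusters were kept when repeated tags of 1 position and strand were set aside. Such copies were 5.24% of the KDM2A tags and 19.4% of the input tags of the array, close to 4.75% and 20.4% in the whole libraries. With each position and strand counted once, 76 of the 77 clusters were called again, and all 69 in alpha, beta and gamma. 183 bins of the array then passed, where 0.967% of all bins did, and the exchanged comparison called 0, where 0.00324% of all bins did.

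The other settings changed the number of clusters more in gamma than in alpha. At an adjusted p limit of 0.0001, 15 of 17 clusters in alpha, 19 of 23 in beta and 21 of 29 in gamma were called again. 116 bins of the array passed this limit, where 0.618% of all bins did, and 0 in the exchanged comparison, where 0.0124% of all bins did. With 500 bp bins, of which the array holds fewer, 143 bins of the array were called against 1.69% of all bins, and 1 in the exchanged comparison against 0.145%. Counts under the other settings are out of the 3700 bins of 250 bp. Against the genome mean alone, 240 bins of the array were called, where 1.72% of all bins were, and 16 in the exchanged comparison, where 0.687% of all bins were. Without movement of tags, 179 bins were called against 1.03% of all bins. With input scaled by bins outside clusters, 218 were called against 1.35% of all bins.

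**Figure D5:**
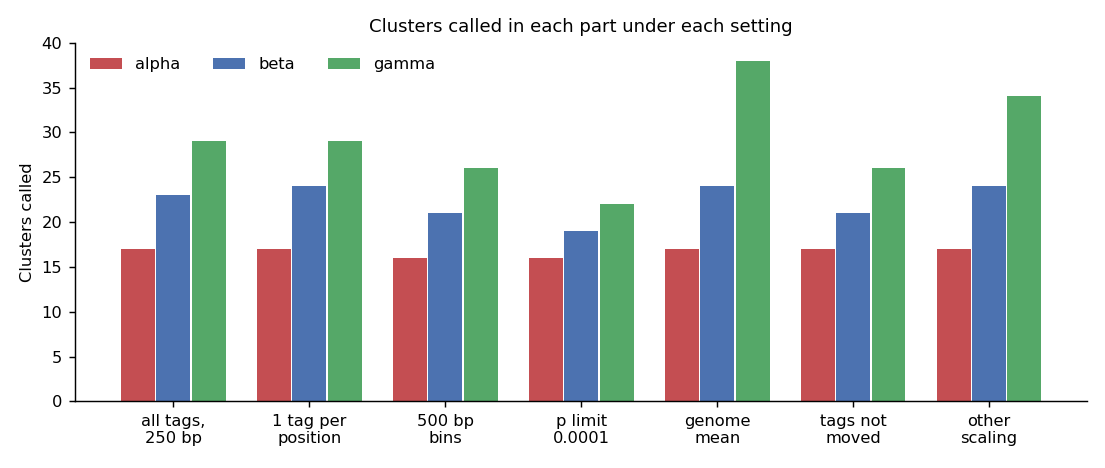
Number of clusters called in the alpha, beta and gamma parts with the settings of the report (left) and under each of the 6 alternatives. The order alpha, beta, gamma holds in every setting, with gamma between 22 and 38 clusters, beta between 19 and 24 and alpha at 16 or 17.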

How the data were processed

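ChIP and input DNA of mouse ESCs were amplified by 18 cycles of PCR and sequenced. The submitters' processing notes name Bowtie and mm9. The authors deposited tag counts per chromosome, strand and position, without normalization, and no version or setting is given in the sources used here. The libraries held 10042076 KDM2A tags and 9760426 input tags. A tag counts at most 7 times at a position in the ChIP library and 9 times in the input library.

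Tags were moved by 50 bp toward their 3' side and counted per 250 bp bin, leaving out 10 kb blocks empty in both libraries. KDM2A tags of each bin were set, in a one-sided Poisson test (exact), against the genome mean or the scaled input of the 5 kb around it if that was higher, with Benjamini-Hochberg adjustment over all bins and a limit of 0.01. Called bins within 500 bp were merged. A cluster is counted in the part that holds its start. Intervals are exact at 95% (binomial or Poisson) and, like the Fisher tests, cover counting error only. Clusters named were the 4 with the most KDM2A tags, the widest and the lowest of each part, all of the gaps and 2 of each flank. Other values stand as counts. The stretch, its parts and these rules were chosen with earlier results of these data known. 6 alternatives were tried: each position and strand counted once, 500 bp bins, a limit of 0.0001, the genome mean alone, no movement of tags, and input scaled by bins outside clusters. Python 3.11.15, numpy 2.4.6, scipy 1.17.1, pandas 2.3.3 and matplotlib 3.10.9 were used.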

Additional observations from a re-analysis of the deposited data

How the results depend on the processing

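No paired analysis was possible because each group has 1 library. Of 158 values under the 6 alternatives named above, 130 stayed within 1.5 times (counts), within the interval (levels) or on the same side of the test, and 28 moved, 6 of them ratios outside clusters. The number of clusters in each part was among the former in every alternative run. Ratios, input levels and odds ratios over all tags are among the 158 values too. A change of bin width leaves these as they are by construction, and movement of tags hardly alters totals over such long parts. The count of values that stayed is therefore no measure of how stable the results are. With each position and strand counted once, input fell to 2.76 tags per kb in the array, 2.57 in alpha, 2.296 in beta and 4.18 in gamma, by construction, and the exchanged comparison called 0 bins in the array and 0 in alpha. With 500 bp bins, which are fewer, 42 bins were called in beta and 1 bin of the array in the exchanged comparison. At the limit of 0.0001, 116 bins were called in the array, 29 in alpha and 35 in gamma, with 0 exchanged calls in the array and 0 in alpha. With the genome mean alone, 99 bins were called in gamma, which are all its bins of 7 or more KDM2A tags, and the exchanged comparison called 16 bins in the array, 2 in alpha, 4 in beta and 5 in gamma. With input scaled by bins outside clusters, a factor of 0.772, the ratio was 2.27 in the array, 1.88 in alpha, 2.72 in beta and 2.76 in gamma, while the odds ratios between parts do not use the factor. Outside the clusters of the limit of 0.0001, the odds ratio was 0.906 for alpha over the flanks, where the settings of the report gave 0.761. For beta over the flanks it was 1.10 there and 1.004 outside the clusters of the genome mean alone, where the settings of the report gave 0.972. No call is made on tags outside clusters. Both settings were applied to tags outside clusters after the data were seen. The odds ratio of beta over gamma, 0.983 and past no threshold, became 1.02 when the beta part was extended by 12 kb, an alternative chosen after the data were seen. With 1 library per group and 5548 KDM2A tags in the array, values within the intervals given remain compatible with the counts. The smallest difference that could be detected was not computed.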

Other observations

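The 3 bins of the array in which input exceeded KDM2A each held 8 input tags. They lay from 37255501 to 37255750 in alpha, with 0 KDM2A tags, from 37368001 to 37368250 between alpha and beta, with 0, and from 37770251 to 37770500 between beta and gamma, with 3, and in each the adjusted p was 0.00603 (exact Poisson test). None of them was called when each position and strand was counted once.

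Every one of the 77 clusters of the array held KDM2A tags of both strands. In 61 of them the median position of minus strand tags lay after that of plus strand tags, by a median of 68.5 bp over the 77.

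Just before the array lay the longest stretch with no called bin in either flank, 118.25 kb from 36961751 to the start of the array, where 215 KDM2A tags and 357 input tags gave a ratio of 0.585 (0.492 to 0.695). The first cluster of the alpha part begins 11.0 kb after it.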
